A study of Mus musculus with 10 samples.

Results

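The genes described here were 9 genes of the splenic stroma, the connective framework of the organ, taken by symbol from the deposited gene table, where each matched 1 of 54532 genes. They were 5 transcription factors of spleen development (Tlx1, Nkx2-5, Nkx3-2, Tcf21 and Nr2f2), the reticular cell glycoprotein gene Pdpn, and 3 genes of contractile cells (Des, Acta2 and Myh11). RNA was sequenced from whole spleens of 5 DUSP6 KO and 5 WT mice with KRN serum-induced arthritis (KSIA), taken at day 9 and giving 1 library each. KSIA is a joint inflammation that is transferred with the serum of arthritic KRN x NOD F1 mice, and every mouse of both groups received 100 µL of pooled serum into the peritoneum on days 0 and 2, so that no spleen came from an untreated animal. DUSP6 KO mice carry the allele Dusp6tm1Jmol, a deletion present in all cells and not only in the stroma, which the labels call a DUSP6 Knockdown, and the WT mice were C57BL/6J. Mice were 8 to 12 weeks old. Both lines were purchased, and nothing states that the groups were littermates. Other differences between the lines therefore cannot be told apart from the loss of DUSP6. The p-values measure the spread between these mice only. The comparison describes how spleen gene expression in arthritis differed between DUSP6 KO and WT mice, seen here through the stroma. DUSP6 is a phosphatase that turns off the MAP kinase ERK.

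Libraries are named by group and the number in their titles, called the animal number here. The DUSP6 KO libraries held 14990474 to 19822673 gene reads, and the WT libraries held 15611652 to 18422147. Dusp6 was at 0.308 to 0.624 FPKM (fragments scaled by gene length and library size) in the DUSP6 KO libraries and at 16.6 to 24.0 FPKM in WT. All 10 libraries were from males by their own RNA, with Xist at 0.0206 FPKM or less and the Y-linked Ddx3y at 14.4 FPKM or more. The B cell receptor gene Cd79a was at 246 to 629 FPKM over all libraries, which goes with a tissue rich in B cells but is not particular to spleen. Certain libraries stood apart. Haemoglobin genes took 7.57% of the reads of DUSP6 KO 73, 5.73% of those of DUSP6 KO 26 and 1.74% of those of DUSP6 KO 21, against 1.94% to 3.97% in WT. DUSP6 KO 73 also had an adipose marker sum of 29.3 FPKM, and WT 67 had adipose markers at 45.5 FPKM and exocrine pancreas markers at 1.63% of its reads.

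The spleen arises from a condensation of mesenchyme beside the stomach, in which Tlx1, Nkx2-5, Nkx3-2 and Tcf21 are active and without some of which the organ is lost or stays small. In the adult, descendants of this mesenchyme form reticular cells, which carry the white and red pulp on a mesh of fibres and guide lymphocytes with chemokines. Reticular and trabecular cells and the capsule also hold contractile proteins, which the smooth muscle of arteries holds as well. In bulk RNA, fewer cells of a type and less RNA per cell cannot be told apart, and the cells that gave these reads were not identified.

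The promoters of 4 of the 9 genes are shown because they stand for both sides of the comparison below: the transcription factors with the largest differences, Tlx1 and Tcf21, and the contractile genes Des and Acta2. RefSeq promoters of the build GRCm38.p6 were matched for 8 of the 9 genes, all but Myh11, and the stretch from 250 to 36 bases before the start was used. Each line runs 5′ to 3′ along the gene, and capitals mark each E box (CANNTG), the core that TCF21 and other basic helix-loop-helix factors bind.
Tlx1: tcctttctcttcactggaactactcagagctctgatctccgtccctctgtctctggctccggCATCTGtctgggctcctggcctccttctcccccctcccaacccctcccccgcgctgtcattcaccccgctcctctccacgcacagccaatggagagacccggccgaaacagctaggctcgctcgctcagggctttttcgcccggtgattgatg
Tcf21: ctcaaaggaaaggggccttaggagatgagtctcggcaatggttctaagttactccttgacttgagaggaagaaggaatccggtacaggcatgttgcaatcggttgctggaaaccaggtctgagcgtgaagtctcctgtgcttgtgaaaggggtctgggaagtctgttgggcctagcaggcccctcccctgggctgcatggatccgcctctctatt
Des: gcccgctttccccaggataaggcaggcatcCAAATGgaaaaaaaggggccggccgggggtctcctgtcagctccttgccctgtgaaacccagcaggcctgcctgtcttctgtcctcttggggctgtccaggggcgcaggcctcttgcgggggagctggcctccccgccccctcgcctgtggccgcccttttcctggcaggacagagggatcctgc
Acta2: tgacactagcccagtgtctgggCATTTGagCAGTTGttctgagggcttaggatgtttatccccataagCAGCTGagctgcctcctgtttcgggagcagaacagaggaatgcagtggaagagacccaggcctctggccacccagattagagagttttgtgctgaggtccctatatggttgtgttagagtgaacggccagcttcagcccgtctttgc
These stretches lie at chr19:45150465-45150679 (+ strand) for Tlx1, chr10:22820179-22820393 (- strand) for Tcf21, chr1:75360042-75360256 (+ strand) for Des and chr19:34255409-34255623 (- strand) for Acta2. The E box of Tlx1 began 188 bases before the start and that of Des 220 bases before it. Acta2 held 3 of them, at 228, 220 and 182 bases before the start, and Tcf21 held 0. Of all 32851 promoter stretches of this length, 61.4% held an E box on either strand, a background against which these matches should be read. The other 5 motifs were searched on both strands. They included the core of NK homeodomain sites (AAGTG, in 36.2% of promoters), an ETS site (CCGGAA, in 9.17%) and an AP-1 site (TGANTCA, in 5.97%). The remaining ones were the TATA box (TATAAA, in 9.75%) and the CArG box of serum response factor (CCWWWWWWGG with W for A or T, in 1.27%). In the 8 promoters, AAGTG and CCGGAA were found once each, both in Nkx3-2, and exact AP-1, TATA and CArG letters were found in 0. The bases nearer to the start, where a TATA box usually lies, were outside the stretch. The search therefore cannot say whether these promoters hold a TATA box. Acta2 holds ccctatatgg, a near match to the CArG letters with a C in place of the leading W, which was not counted. Nkx2-5, Nkx3-2, Nr2f2 and Pdpn held 1 E box each. A match or its absence describes these letters only.

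Levels per gene length followed the same order of means in both groups, from Acta2 through Des, Tcf21, Tlx1, Myh11, Nkx2-5, Nr2f2 and Nkx3-2 to Pdpn. Neighbours in this order often overlapped. In WT, the ranges of Tcf21 and Tlx1, of Tlx1 and Myh11, and of Nkx2-5 and Nr2f2 overlapped, and the other neighbours did not. In DUSP6 KO, the ranges of Des and Tcf21, of Tcf21 and Tlx1, of Myh11 and Nkx2-5, of Nkx2-5 and Nr2f2, and of Nr2f2 and Nkx3-2 overlapped. The spread was wider in DUSP6 KO for each of the 9 genes, with a coefficient of variation of 15.4% to 114% against 4.81% to 56.0% in WT. This was not particular to them, since most of the other contractile and reticular genes tested below also had a wider spread in DUSP6 KO. The other patterning genes were mixed, and the share over all genes was not computed. DUSP6 KO 21 was the highest DUSP6 KO library for 8 of the 9 genes, and Pdpn was the exception. DUSP6 KO 21 also had the highest median level over all genes among the 10 libraries. Whether its rank for the 8 genes follows from that was not tested.

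None of the 9 genes passed an adjusted p of 0.05 (limma on log2 of FPKM + 0.1, Benjamini-Hochberg over 21296 genes), and over all genes 15 did (0.0704%). The paper's own test, on counts rather than FPKM, reported many more genes than these 15 as higher or lower in DUSP6 KO. At an unadjusted limma p under 0.05, 3 of the 9 genes were higher in DUSP6 KO, where 2.62% of all genes were, and 0 were lower, where 3.03% of all genes were. The 9 genes were chosen with earlier results of these data known, so these counts are not independent of that choice. With limma voom on recovered reads, the adjusted count was also 0, and 4 genes were under 0.05, the fourth being Pdpn on the lower side. The groups did not overlap for 0 of the 9 genes and for 1.11% of all genes. The log2 difference (DUSP6 KO minus WT) had a median of 0.19 over the 9 genes, 0.53 over the 5 transcription factors and -0.12 over the 3 contractile genes. Over all genes tested the median was -0.0046, with quartiles of -0.16 and 0.14. A test of the transcription factors against the contractile genes was not made.

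**Figure D1:**
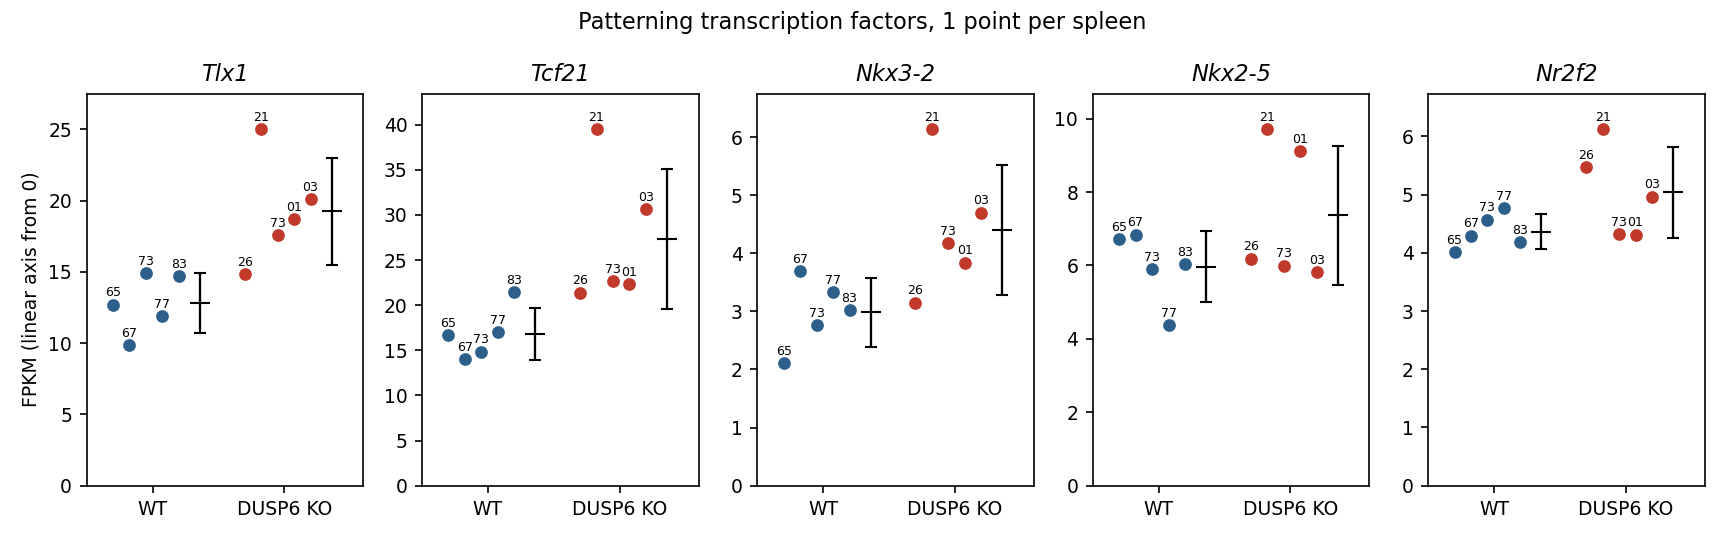
FPKM of the 5 transcription factors on linear axes from 0, with 1 point per spleen labelled by animal number (WT blue, DUSP6 KO red), and beside each group its mean with 1 SD (n = 5). For Tlx1, Tcf21 and Nkx3-2, 4 DUSP6 KO points lie above every WT point, and for Nkx2-5 and Nr2f2 the groups are mixed.

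Tlx1 encodes the homeobox factor without which the early spleen regresses. The gene lies at chromosome 19, 45150680 to 45156943, on the + strand (ENSMUSG00000025215; positions here and below are those deposited, which are of GRCm38). DUSP6 KO libraries 26, 21, 73, 01 and 03 had 14.86, 25.01, 17.6, 18.7 and 20.1 FPKM. WT libraries 65, 67, 73, 77 and 83 had 12.7, 9.84, 14.91, 11.9 and 14.7 FPKM. The 4 highest libraries were DUSP6 KO, and the lowest of that group, DUSP6 KO 26, fell just under WT 73, so the groups overlapped by 1 library each way. The means were 19.2 ± 3.75 and 12.8 ± 2.10 FPKM (SD, n = 5), a log2 difference of 0.58 (SE 0.15, 95% interval 0.24 to 0.91) or 1.49-fold. The limma p was 0.0030 before and 0.462 after adjustment, and the exact permutation p was 0.0159, where 0.0079 is the smallest that 5 against 5 allows. These levels rest on 551 to 1040 reads per DUSP6 KO library and 402 to 563 per WT library.

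Tcf21 encodes a basic helix-loop-helix factor of visceral mesenchyme. It lies at chromosome 10, 22817281 to 22820174, on the - strand (ENSMUSG00000045680), on the same chromosome as the deleted Dusp6 and 76.4 Mb from it. In the same library order, the DUSP6 KO spleens had 21.38, 39.5, 22.6, 22.3 and 30.6 FPKM and the WT spleens had 16.7, 14.0, 14.9, 17.0 and 21.40 FPKM. Again 4 DUSP6 KO libraries were above all WT libraries, and DUSP6 KO 26 was level with WT 83. The means were 27.3 ± 7.77 and 16.8 ± 2.87 FPKM (SD, n = 5), and the log2 difference was 0.67 (SE 0.18, 95% interval 0.27 to 1.07), the largest positive one among the 9 genes. The limma p was 0.0036, or 0.472 adjusted, and the exact permutation p was 0.0159.

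Nkx3-2 encodes an NK homeobox factor that acts in the spleen primordium and in cartilage. It lies at chromosome 5, 41761483 to 41764501, on the - strand (ENSMUSG00000049691). The DUSP6 KO spleens had 3.15, 6.14, 4.17, 3.84 and 4.70 FPKM, and the WT spleens had 2.11, 3.69, 2.77, 3.33 and 3.02 FPKM. The same 4 DUSP6 KO libraries as for Tlx1 and Tcf21 lay above all WT libraries. The means were 4.40 ± 1.12 and 2.98 ± 0.597 FPKM (SD, n = 5), and the log2 difference was 0.53 (SE 0.19, 95% interval 0.11 to 0.96). The limma p was 0.0185, or 0.758 adjusted, and the exact permutation p was 0.0317. Counts were thinner here, at 62 to 205 reads per library.

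Nkx2-5, another NK homeobox factor and best known from the heart, lies at chromosome 17, 26838664 to 26841565, on the - strand (ENSMUSG00000015579). Its DUSP6 KO levels were 6.19, 9.71, 6.00, 9.11 and 5.81 FPKM, and its WT levels were 6.71, 6.84, 5.89, 4.38 and 6.04 FPKM. Only DUSP6 KO 21 and 01 were above the WT range, and the other 3 lay within it. The means were 7.36 ± 1.89 and 5.97 ± 0.980 FPKM (SD, n = 5), with a log2 difference of 0.28 (SE 0.18, 95% interval -0.12 to 0.68). The exact permutation p was 0.238 and the adjusted limma p was 0.953.

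Nr2f2 encodes the nuclear receptor COUP-TFII, a factor of venous and lymphatic endothelium and of mesenchyme. It lies at chromosome 7, 70351944 to 70366735, on the - strand (ENSMUSG00000030551), and its exons overlap those of the antisense gene B130024G19Rik, whose reads cannot be told apart from its own without strand. Levels were 5.47, 6.12, 4.32, 4.31 and 4.96 FPKM in DUSP6 KO against 4.01, 4.29, 4.57, 4.77 and 4.19 FPKM in WT. Of the DUSP6 KO libraries, 3 were above the WT range and 2 were inside it. The means of 5.04 ± 0.777 and 4.37 ± 0.305 FPKM (SD, n = 5) gave a log2 difference of 0.19 (SE 0.11, 95% interval -0.06 to 0.44). The exact permutation p was 0.111, and the adjusted limma p was 0.944.

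The positive differences of Tlx1 and Tcf21 held an unadjusted limma p under 0.05 in all 21 alternatives tried, with log2 differences of 0.48 to 0.67 and 0.53 to 0.79. Lacking both DUSP6 KO 21 and DUSP6 KO 73, Tlx1 was at 0.48, Tcf21 at 0.56 and Nkx3-2 at 0.38, with adjusted limma p of 0.663, 0.605 and 0.919. That fit was the only one of the 21 in which Nkx3-2 lost its unadjusted limma p under 0.05. Without WT 67, the differences of Tlx1, Tcf21 and Nkx3-2 were 0.49, 0.61 and 0.62. With the haemoglobin share as a covariate they were 0.64, 0.79 and 0.65, with adjusted limma p of 0.245, 0.129 and 0.299.

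**Figure D2:**
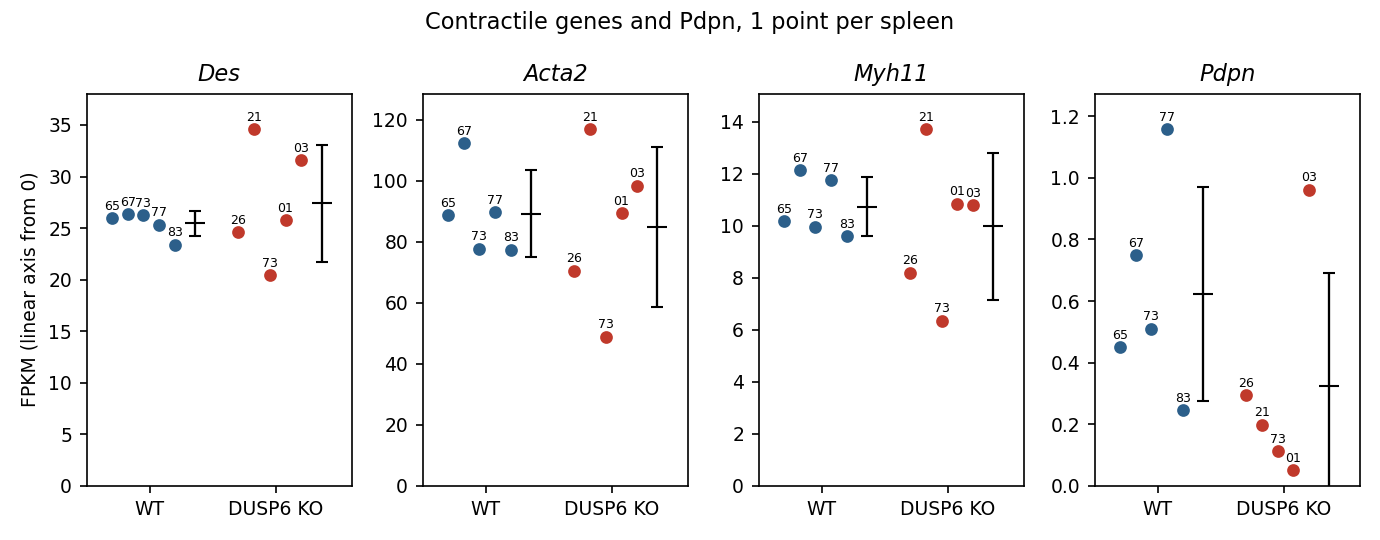
FPKM of Des, Acta2, Myh11 and Pdpn on linear axes from 0, with 1 point per spleen labelled by animal number (WT blue, DUSP6 KO red), and beside each group its mean with 1 SD (n = 5; the lower bar of Pdpn in DUSP6 KO is cut at 0). The groups overlap in every panel, DUSP6 KO 21 is at the top and DUSP6 KO 73 at the bottom of the DUSP6 KO points for the contractile genes, and DUSP6 KO 03 stands apart for Pdpn.

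Pdpn encodes podoplanin, a membrane glycoprotein of reticular fibroblasts, lymphatic endothelium and the mesothelium that covers the spleen. It lies at chromosome 4, 143267431 to 143299564, on the - strand (ENSMUSG00000028583), and was the lowest of the 9 genes. DUSP6 KO libraries 26, 21, 73, 01 and 03 had 0.295, 0.198, 0.113, 0.0508 and 0.962 FPKM. WT libraries 65, 67, 73, 77 and 83 had 0.451, 0.750, 0.511, 1.16 and 0.246 FPKM. The DUSP6 KO values of libraries 21, 73 and 01 were below every WT value, and DUSP6 KO 03 was above all WT values but that of WT 77. Reads numbered 2 to 29 per DUSP6 KO library and 8 to 35 per WT library. The means were 0.324 ± 0.369 and 0.623 ± 0.349 FPKM (SD, n = 5), and the log2 difference was -0.99 (SE 0.53, 95% interval -2.16 to 0.18). The exact permutation p was 0.127 and the adjusted limma p was 0.944. The size of this difference hung on the treatment of low values, at -0.31 with a pseudocount of 1 and -1.41 with limma voom (adjusted p of 0.992). Without DUSP6 KO 03 it was -1.41, with a limma p of 0.0088, or 0.699 adjusted.

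The mesothelium was examined as another source of Pdpn. The sum of 6 such markers was 0.268 to 3.16 FPKM in DUSP6 KO against 0.822 to 11.8 FPKM in WT (exact permutation p = 0.0476). In DUSP6 KO libraries 26, 21, 73, 01 and 03 it was 0.366, 0.588, 2.20, 0.268 and 3.16 FPKM, and in WT libraries 65, 67, 73, 77 and 83 it was 3.605, 3.51, 3.59, 11.8 and 0.822 FPKM. The libraries with the highest and lowest sum in each group, WT 77 and 83 and DUSP6 KO 03 and 01, were also those with the highest and lowest Pdpn. The order differed in between, since DUSP6 KO 73 had the second sum but 0.113 FPKM of Pdpn, and DUSP6 KO 26 had a low sum with the second Pdpn value of its group. WT 65, 67 and 73 had near-equal sums with Pdpn from 0.451 to 0.750 FPKM, but these sums were made up differently. Msln, which encodes mesothelin, was at 0.0761 to 0.627 FPKM in DUSP6 KO against 0.124 to 4.47 FPKM in WT. In WT 67, Msln, Upk3b and Lrrn4 were at 0.124, 0.549 and 0.183 FPKM. They were at 1.44, 1.06 and 0.441 FPKM in WT 65 and at 1.18, 1.17 and 0.421 FPKM in WT 73. WT 67 also held pancreas markers (1.63% of its reads), and their tissue's part in its mesothelial sum was not tested. Krt19, an epithelial keratin of mesothelium, was the only one of the 6 with an unadjusted limma p under 0.05 (0.0427, or 0.857 adjusted, lower in DUSP6 KO). It rested on 0 to 6 reads per DUSP6 KO library and on 0 to 37 per WT library. Markers of lymphatic endothelium, another source of Pdpn, summed to 4.89 to 8.52 FPKM in DUSP6 KO against 5.58 to 8.01 FPKM in WT. The part of mesothelium in the Pdpn values was not tested.

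Des encodes desmin, the intermediate filament of muscle and of many reticular cells. It lies at chromosome 1, 75360329 to 75368579, on the + strand (ENSMUSG00000026208), and shares exon bases with the antisense gene Gm15179. DUSP6 KO levels were 24.6, 34.6, 20.4, 25.8 and 31.6 FPKM, and WT levels were 25.99, 26.3, 26.3, 25.3 and 23.4 FPKM. The WT spleens lay within a narrow band, and DUSP6 KO spleens lay above, within and below it. The means were 27.4 ± 5.66 and 25.5 ± 1.23 FPKM (SD, n = 5), and the log2 difference was 0.08 (SE 0.13, 95% interval -0.21 to 0.37, exact permutation p = 0.571). Without DUSP6 KO 21 it was -0.0085.

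Acta2 encodes smooth muscle alpha-actin and was the highest of the 9 genes. It lies at chromosome 19, 34241090 to 34255336, on the - strand (ENSMUSG00000035783). Levels were 70.5, 116.9, 48.9, 89.4 and 98.4 FPKM in DUSP6 KO against 88.8, 112, 77.7, 89.6 and 77.4 FPKM in WT. DUSP6 KO 73 and 26 were below the WT range and DUSP6 KO 21 was above it. The means of 84.8 ± 26.1 and 89.1 ± 14.2 FPKM (SD, n = 5) gave a log2 difference of -0.12 (SE 0.21, 95% interval -0.59 to 0.35, exact permutation p = 0.698). Without DUSP6 KO 73 the sign turned, to 0.06.

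Myh11, the smooth muscle myosin heavy chain, lies at chromosome 16, 14194535 to 14291372, on the - strand (ENSMUSG00000018830). It had 8.20, 13.7, 6.35, 10.9 and 10.8 FPKM in DUSP6 KO against 10.2, 12.2, 9.96, 11.7 and 9.61 FPKM in WT. The order of the DUSP6 KO libraries was close to that of Acta2, again with 21 at the top and 73 at the bottom. The means were 9.98 ± 2.82 and 10.7 ± 1.14 FPKM (SD, n = 5), with a log2 difference of -0.15 (SE 0.18, 95% interval -0.55 to 0.26, exact permutation p = 0.516), and 0.0039 without DUSP6 KO 73. The adjusted limma p of Des, Acta2 and Myh11 was 0.993 for each. Their intervals leave room for a difference of 0.37 on the log2 scale upward for Des and of 0.59 downward for Acta2.

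**Figure D3:**
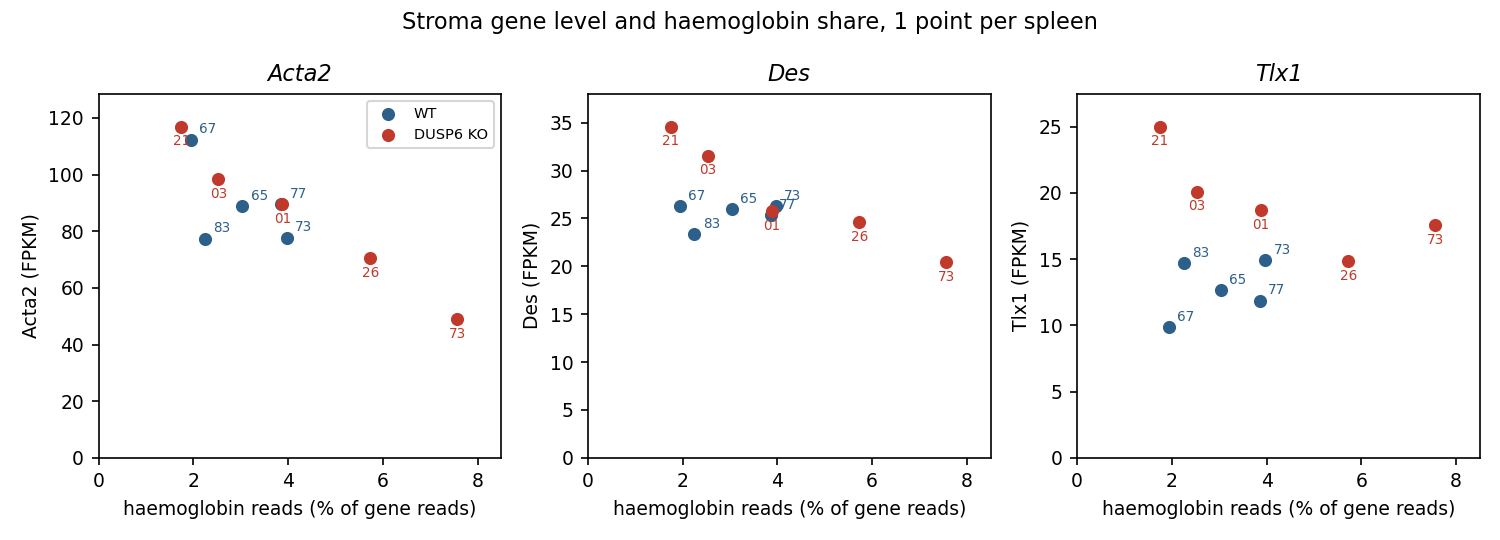
FPKM of Acta2, Des and Tlx1 (linear axes from 0) against the share of gene reads from haemoglobin genes in percent, with 1 point per spleen labelled by animal number (WT blue, DUSP6 KO red). Among DUSP6 KO spleens, Acta2 is lower where the haemoglobin share is larger, from DUSP6 KO 21 at 1.74% to DUSP6 KO 73 at 7.57%. The WT spleens do not keep this order, with Acta2 at 77.4 FPKM in WT 83 (2.25%) and 89.6 FPKM in WT 77 (3.86%). WT 77 and DUSP6 KO 01 nearly coincide in the Acta2 and Des panels.

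After each group's mean was taken from the log2 values, Pearson's r over the 10 libraries was 0.97 between Acta2 and Myh11, 0.90 between Des and Acta2 and 0.89 between Des and Myh11. Without DUSP6 KO 21 and 73 these were 0.90, 0.65 and 0.56, so the likeness of Des to the other 2 was smaller in the remaining 8 spleens. The haemoglobin share of the reads ran the other way, with r of -0.87 for Acta2, -0.82 for Myh11 and -0.81 for Des. For the transcription factors, r with the haemoglobin share was -0.71 for Tcf21, -0.64 for Nkx3-2, -0.57 for Nkx2-5, -0.43 for Tlx1 and -0.37 for Nr2f2, and it was -0.18 for Pdpn. These are descriptions over libraries that share a fixed total of reads, in which more of one RNA leaves less for the others. Leaving out DUSP6 KO 21 and 73, r was -0.70 for Acta2, -0.50 for Myh11 and -0.47 for Des. It was then -0.47 for Tcf21, -0.59 for Nkx3-2, -0.27 for Nkx2-5, -0.08 for Tlx1 and -0.14 for Pdpn, and for Nr2f2 it turned to 0.48. In the fit with the haemoglobin share, the differences between groups were 0.18 for Des, 0.06 for Acta2 and -0.0045 for Myh11. In the fit rescaled without haemoglobin, mitochondrial, immunoglobulin and T cell receptor genes, they were 0.09, -0.11 and -0.13. The part of red cell RNA in the differences was not tested beyond these fits.

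Since the transcription factors and the contractile genes were measured in the same libraries, their ratio does not depend on the scaling of a library. Each factor was divided by the geometric mean of Des, Acta2 and Myh11, a measure chosen after its values were seen, and no test was made. Per 100 FPKM of that mean, Tlx1 was at 61.4, 65.6, 94.97, 63.9 and 62.3 FPKM in DUSP6 KO spleens 26, 21, 73, 01 and 03. In WT spleens 65, 67, 73, 77 and 83 it was at 44.3, 29.8, 54.6, 39.7 and 56.7 FPKM, so that all DUSP6 KO ratios were above all WT ratios. The ratio of Nkx3-2 was 13.0 to 22.5 in DUSP6 KO and 7.37 to 11.7 in WT, also without overlap. Of all 21296 genes tested, 0.521% had ratios to the same mean that were without overlap and higher in DUSP6 KO. Tcf21 was at 76.3 to 122 against 42.4 to 82.6, Nkx2-5 at 18.0 to 32.4 against 14.7 to 23.4 and Nr2f2 at 14.8 to 23.3 against 13.0 to 16.8, and these 3 overlapped. In DUSP6 KO 73 the ratios of all 5 factors were the highest of the group, which is also the library with the least Des, Acta2 and Myh11.

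**Figure D4:**
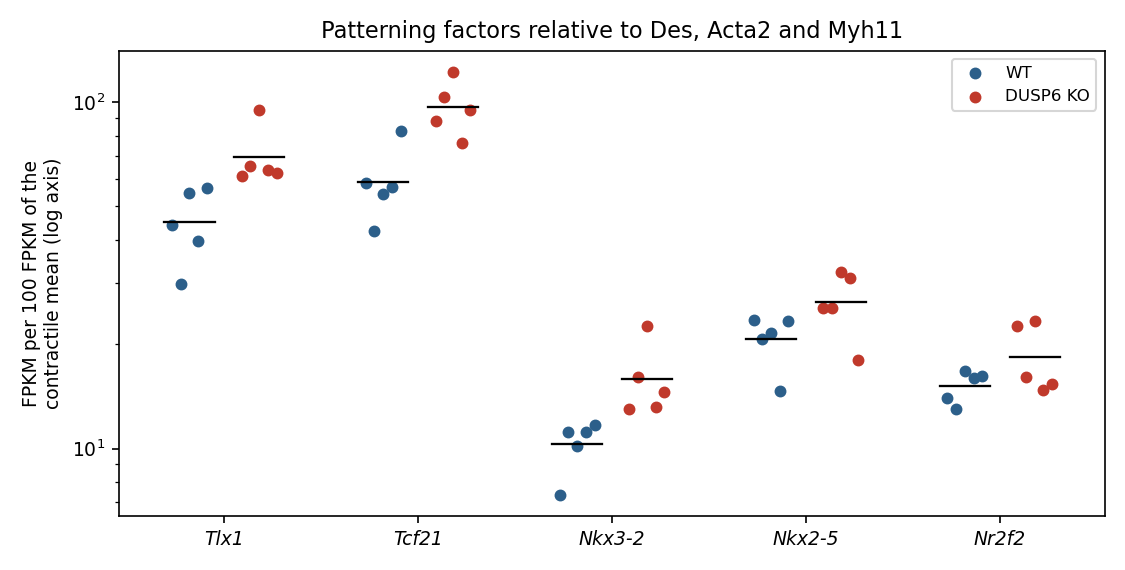
Level of each transcription factor per 100 FPKM of the geometric mean of Des, Acta2 and Myh11 (log axis), with 1 point per spleen and a bar at the group mean (WT blue, DUSP6 KO red). The DUSP6 KO points of Tlx1 (61.4 to 94.97) and Nkx3-2 (13.0 to 22.5) lie above all WT points, as they do for 0.521% of all genes on this ratio, and those of the other 3 factors overlap with WT.

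Other genes of spleen patterning were tested as a list of 12, of which Hoxa9, Isl1 and Gata4 were under the minimum mean of 0.1 FPKM. Of the 9 tested, 0 passed the adjusted test by limma or voom and 0 had an unadjusted limma p under 0.05. Their median log2 difference was 0.15, with 7 positive and 2 negative. Nkx2-3, the homeobox factor of splenic and gut vessels and the most abundant of them, was at 12.3 to 16.3 FPKM in DUSP6 KO against 10.5 to 13.7 FPKM in WT, a log2 difference of 0.18 (exact permutation p = 0.167). Gata6, a zinc finger factor of mesothelium and visceral mesenchyme, was at 0.830 to 1.04 against 0.560 to 0.925 FPKM, a difference of 0.32 (exact permutation p = 0.0238, adjusted limma p = 0.944). Osr1, an early factor of intermediate mesoderm, was listed at 0 in 3 of the DUSP6 KO libraries, and its highest levels were 0.363 FPKM (DUSP6 KO 73) and 0.645 FPKM (WT 73) (exact permutation p = 0.167). The log2 difference of Osr1 was -0.97, from levels of 0.645 FPKM or less.

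Of 20 other reticular stroma genes, 17 were tested, since Il6 was under the minimum and the symbols Ccl19 and Ccl21a stood on 2 rows each. The adjusted test called 0 with limma or voom, and 1 gene had an unadjusted limma p under 0.05. This was Pdgfrb, the receptor for platelet-derived growth factor B on fibroblasts and pericytes. Pdgfrb was at 8.27, 17.1, 10.8, 12.4 and 13.3 FPKM in DUSP6 KO against 9.01, 7.25, 8.19, 8.05 and 8.12 FPKM in WT. As for Tlx1, Tcf21 and Nkx3-2, every DUSP6 KO library but 26 was above all WT libraries, with a log2 difference of 0.57 (SE 0.16, exact permutation p = 0.0159, adjusted limma p = 0.555). The difference of Pdgfrb was 0.44 without DUSP6 KO 21, 0.70 without DUSP6 KO 26 and 0.45 lacking DUSP6 KO 21 and 73. The related receptor Pdgfra, a marker of fibroblasts, was at 4.12 to 5.19 against 3.97 to 4.82 FPKM, a log2 difference of 0.14 (exact permutation p = 0.127). Cxcl13, the B cell chemokine of follicular stroma and the most abundant of the list, was at 104 to 188 against 105 to 153 FPKM (0.14, exact permutation p = 0.476). The alarmin gene Il33 was at 3.85 to 5.605 against 4.46 to 7.41 FPKM (-0.25, exact permutation p = 0.175). The list's median was -0.07, with 7 positive and 10 negative. Its genes are not particular to reticular cells in whole spleen, and Vcam1 is also among the macrophage markers below.

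All 16 other contractile genes were tested. The adjusted test called 0 of them with limma or voom and 0 had an unadjusted limma p under 0.05. The median log2 difference was -0.08, with 6 positive and 10 negative. Cnn1, the smooth muscle calponin, was at 1.35 to 3.88 FPKM in DUSP6 KO and 2.59 to 6.24 in WT (-0.68, exact permutation p = 0.0794). Lmod1, which builds actin filaments in smooth muscle, was at 1.23 to 2.18 against 1.57 to 2.29 FPKM (-0.33, exact permutation p = 0.0873). Synpo2, an actin-bundling protein of muscle, was at 3.83 to 6.30 against 3.46 to 4.66 FPKM (0.32, exact permutation p = 0.0635). The actin cross-linker Flna was the most abundant, at 68.7 to 110 against 88.7 to 97.9 FPKM (-0.15, exact permutation p = 0.262).

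**Figure D5:**
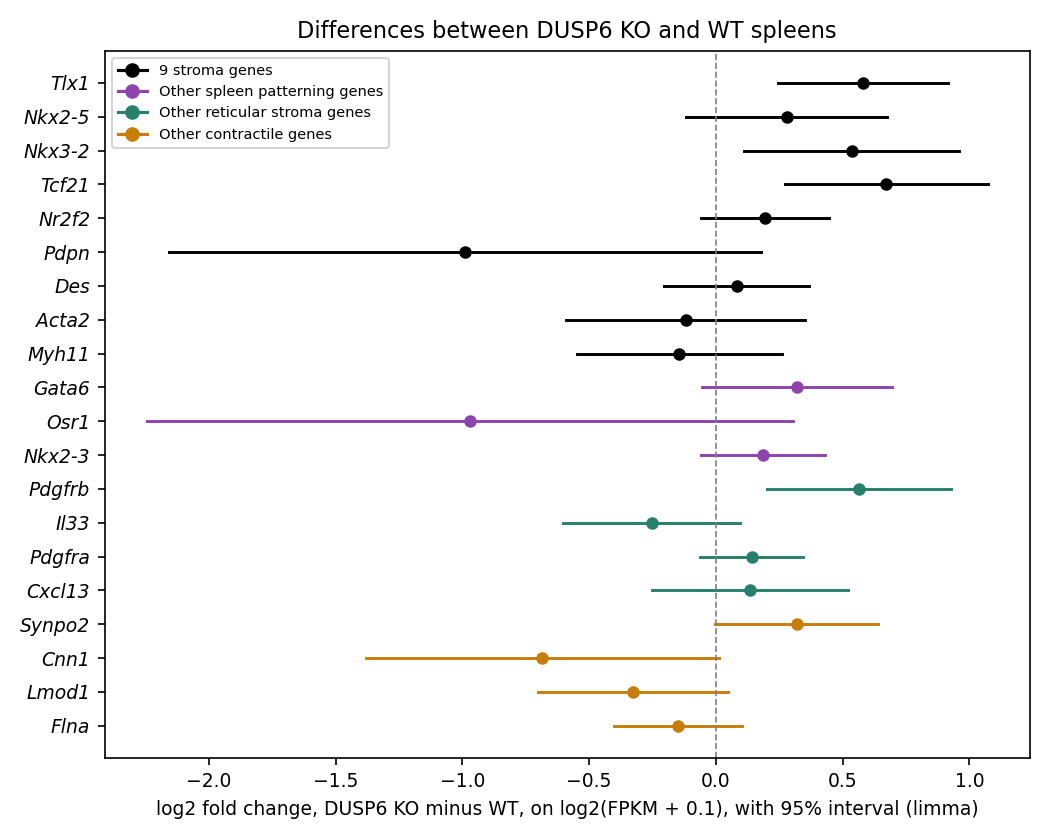
Log2 difference between DUSP6 KO and WT on log2(FPKM + 0.1), as points with 95% intervals from limma (not adjusted), for the 9 genes (black) and for the genes named from the lists of other patterning (purple), reticular (green) and contractile genes (orange). The intervals of Tlx1, Nkx3-2, Tcf21 and Pdgfrb lie above 0, and every other interval includes it.

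Markers of other cells that could give stromal reads were compared as summed FPKM. Blood endothelium, with 5 markers, was at 58.9 to 84.6 in DUSP6 KO against 50.3 to 80.3 in WT (exact permutation p = 0.476), and log2 differences were 0.30 for Stab2, 0.19 for Cdh5, 0.12 for Kdr, -0.04 for Pecam1 and -0.42 for Emcn. Of these, Stab2, a scavenger receptor of sinus endothelium, had an unadjusted limma p under 0.05 (0.0479, adjusted 0.875). Pericyte and vascular smooth muscle markers were at 18.7 to 30.7 against 18.6 to 21.9 (exact permutation p = 0.127). Of these 5, Notch3, the receptor of mural cells, had a log2 difference of 0.41 (exact permutation p = 0.0238, adjusted limma p = 0.789), with 4 DUSP6 KO libraries above all WT, and the others had 0.21 (Kcnj8), 0.12 (Rgs5), -0.03 (Abcc9) and -0.13 (Cspg4). Markers of skeletal muscle, which also holds desmin, were at 6.72 to 14.1 against 6.80 to 9.54, and the defining genes Ckm and Myh4 were at 0 in all 10 libraries.

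Splenic macrophage markers summed to 255 to 452 FPKM in DUSP6 KO and 279 to 319 in WT. Among the 5, Marco, a scavenger receptor of marginal zone macrophages, was at 84.8 to 145 FPKM in DUSP6 KO and 62.8 to 81.8 in WT, without overlap (log2 difference 0.72, exact permutation p = 0.0079, adjusted limma p = 0.343). The paper's own test, on counts rather than FPKM, lists Marco among the significant genes that were higher in DUSP6 KO. Adgre1, the F4/80 antigen of red pulp macrophages, was at 40.2 to 59.5 against 33.1 to 38.3 FPKM, also without overlap (0.38, exact permutation p = 0.0079, adjusted limma p = 0.587). The other 3 had differences at or below 0, with unadjusted limma p-values above 0.05. Cd5l, a secreted protein of macrophages, was at 34.9 to 119.6 against 76.6 to 91.2 FPKM, with 4 DUSP6 KO libraries below all WT (-0.50, exact permutation p = 0.143), and Vcam1 and Spic had log2 differences of -0.11 and -0.0035. Erythroid markers summed to 17644 to 90927 FPKM in DUSP6 KO against 21942 to 43349 in WT, and those of lymphocytes to 384 to 780 against 446 to 960. Adipose markers were at 0.0437 to 29.3 FPKM in DUSP6 KO and 0 to 45.5 in WT, each time with 1 library far above the rest. Exocrine pancreas markers were at 9.52 to 26.2 FPKM in DUSP6 KO and 13.3 to 12871 in WT, where WT 67 was the highest and WT 65 followed at 161. The DUSP6 KO sums were nearly all Cela1, at 9.46 to 26.1 FPKM. Prss2, Ctrb1, Cpa1, Pnlip and Cela3b were each at 0.296 FPKM or less in DUSP6 KO. The part of these cells in the values of Tlx1, Tcf21 and Nkx3-2 was not tested.

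The genes most like Tlx1 across the 10 spleens, by r of log2 values after each group's mean was subtracted, were sought among 13422 genes whose mean reached 1 FPKM. They were Crbn (0.962), Arhgef17 (0.957), Ptges (0.940), Chsy3 (0.935) and Afap1l2 (0.929). Crbn encodes a ubiquitin ligase subunit, Ptges a prostaglandin E synthase, Chsy3 a chondroitin sulfate synthase and Afap1l2 an actin-associated adaptor. Among the other 8 genes described here, Tcf21 was nearest to Tlx1, at 0.78 (0.62 without DUSP6 KO 21 and 73), while r was 0.34 for Nkx3-2 and 0.33 for Nkx2-5, and -0.05 and -0.0087 without those 2 spleens. For Myh11, the most alike were Acta2 (0.969), March9 (0.963), Mapk8ip1 (0.955), Npr1 (0.954) and Pcnx (0.952), all between 0.845 and 0.898 without DUSP6 KO 21 and 73. The 5 genes named for Tlx1 were then at 0.887 to 0.956. Tlx1 and Myh11 themselves had an r of 0.34, which was -0.13 without DUSP6 KO 21 and 73. These values describe 10 libraries that also share differences in composition, and they carry no test.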

How the data were processed

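Total RNA of each spleen was selected for poly-A RNA and sequenced by a service provider. The study's methods name Hisat2 for the alignment of read pairs and featureCounts (1.5.0-p3 in the submitters' processing notes) for gene counts, which the authors turned into FPKM with each gene's length. Only these deposited FPKM values were used. The processing notes name the human build hg38, but the identifiers are mouse and 98.3% of the 54409 genes shared with GENCODE M21 have identical coordinates, so GRCm38 is used here. Whether counting used strand is not given in the sources used here, and the deposited scale was not the sum of gene reads (ratio of 0.949 to 1.124).

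FPKM multiplied by gene length gave whole reads for 100% of values (tolerance 0.001 read), and these give the depth. R 4.3.3 with limma 3.58.1 was used to fit log2(FPKM + 0.1) by lmFit and eBayes (trend) for the 21296 genes whose mean FPKM reached 0.1, with Benjamini-Hochberg adjustment at 0.05 and no covariate. A fold change on this scale understates that of low genes. The study's count test was not repeated on FPKM. Single values and marker sums were compared by two-sided exact permutation over 252 splits. The scripts were tested on simulated data. Replicates differed by more than sampling noise (chi-square per gene of 14.7 or more).

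The members and lists were chosen with earlier results of these data known. Named were the 9 genes and Dusp6, from each list of other genes the 3 with the lowest limma p and the 1 with the highest mean FPKM, the 5 genes most like Tlx1 and Myh11, and marker genes of other cells. March9 was matched by identifier. Alternatives were pseudocounts of 1 and 0.01, a minimum of 1 FPKM or none, eBayes without trend, median centring, quantile normalization, voom, rescaling after removal of haemoglobin, mitochondrial, immunoglobulin and T cell receptor genes, and leaving out each library. A haemoglobin covariate and leaving out DUSP6 KO 21 and 73 together were added after seeing the data. Tables were made with pandas 2.3.3 and data.table (version 1.17.8), and figures Python 3.11.15 and matplotlib 3.10.9.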

Additional observations from a re-analysis of the deposited data

Results flagged for a closer look

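Of 64 groups of 5 values examined, 7 held a library set apart from the other 4 by Dixon's test at 95%, which chance gives in about 1 of 20 groups. Pdpn stood at 0.962 FPKM in DUSP6 KO 03, against 0.0508 to 0.295 in the other DUSP6 KO spleens. Osr1 stood at 0.363 FPKM in DUSP6 KO 73, against 0 to 0.0875. Pdgfra stood at 4.82 FPKM in WT 73, against 3.97 to 4.21 in the other WT spleens. The mesothelial marker sum was 11.8 FPKM in WT 77, against 0.822 to 3.605. The adipose marker sum was 29.3 FPKM in DUSP6 KO 73, against 0.0437 to 0.220 in the other DUSP6 KO spleens, and 45.5 FPKM in WT 67, against 0 to 0.884 in the other WT spleens. The exocrine pancreas sum was 12870.0 FPKM in WT 67, against 13.3 to 161. No library of Tlx1, Tcf21, Nkx3-2, Nkx2-5, Nr2f2, Des, Acta2 or Myh11 was set apart in this way.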

How the results depend on the processing

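Of the 9 genes, 0 passed the adjusted limma test in any of 21 alternatives, and 2 to 4 had an unadjusted limma p under 0.05. The signs of Tlx1, Tcf21, Nkx3-2, Nkx2-5, Nr2f2 and Pdpn held throughout, where Pdpn could be tested in 20, being under a minimum of 1 FPKM. Nkx2-5 was under 0.05 in 1 alternative (the haemoglobin covariate) and Pdpn in 3 (voom and leaving out DUSP6 KO 03 or WT 83). The contractile genes changed sign with single libraries. The log2 difference ranged from -0.0085 (without DUSP6 KO 21) to 0.18 for Des, from -0.25 to 0.063 (without DUSP6 KO 73) for Acta2 and from -0.27 to 0.0039 (without DUSP6 KO 73) for Myh11 as each library was left out, and with the haemoglobin covariate Acta2 was at 0.058. Over all genes, limma called 8 higher and 7 lower. Without a filter it called 4 and 4, and with a minimum of 1 FPKM it called 4 lower. Leaving out each library gave 6 to 21 higher (21 without DUSP6 KO 21) and 4 to 13 lower (13 without DUSP6 KO 21, 4 without WT 83). The alternatives added after seeing the data gave 14 higher with the haemoglobin covariate and 19 higher lacking DUSP6 KO 21 and 73. The cause was not tested. No paired analysis was possible because nothing pairs the mice of the groups. The number 73 that both groups hold is not stated to link those mice. With 5 spleens per group and 2 to 35 reads per library, Pdpn is the gene that depth limits most.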
